A study of Mus musculus with 9 samples.

Results

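A set of 41 genes that copy DNA or prepare its copying was followed in C2C12 myotubes, out of 52780 genes in the count table. The members were taken by name: replication licensing factors, the replicative helicase and its activators, the sliding clamp and its loader, polymerases and primase, enzymes that make deoxynucleotides, regulators of entry into S phase, and Uhrf1. All 41 were found, and all 41 were among the 19545 genes that passed the filter on low counts. C2C12 is an immortal mouse myoblast line that leaves the cell cycle and fuses into multinucleated myotubes when serum is reduced. Every culture was differentiated and collected at day 4, and every culture received siRNA at 10 nM, delivered repeatedly before and during differentiation. The 3 groups held 3 samples each. In si Ctrl, which the labels call wild type, the siRNA was a scramble, in si mH2A1.1 it was directed against the macroH2A1.1 splice isoform, and in si mH2A1.2 against macroH2A1.2. The study lists 2 siRNAs for each isoform, and which of them a sample received was not given in the sources used here. The study calls the 3 samples of a group biologically independent, and the p-values below measure the spread between them.

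MacroH2A1 is a histone H2A variant with a large macrodomain. Its isoforms come from alternative exons of H2afy, and the macroH2A1.1 macrodomain binds NAD-derived ligands. The study compared the knockdowns because it asked how each isoform affects the formation of myotubes. Myoblasts that differentiate leave the cell cycle and normally shut down the replication genes. Before each S phase, the origin recognition complex, Cdc6 and Cdt1 load the MCM2-7 ring onto DNA, which is called licensing. Cdc45 and the GINS complex then turn the ring into an active helicase. Many of these genes are transcribed under E2F factors, which pocket proteins of the retinoblastoma family hold in check in resting cells.

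Poly(A) RNA was sequenced as single reads of 50 bp, and totals ranged from 36924252 to 42223108 counts per sample. The lowest count of any member in any sample was 39, so no member was near the limit of detection. H2afy, the targeted gene, had 56.3, 62.4 and 61.0 CPM (counts scaled to the TMM-adjusted library size) in si Ctrl, 38.9, 30.0 and 30.9 in si mH2A1.1 and 46.8, 47.2 and 43.2 in si mH2A1.2. Its log2 fold change against si Ctrl was -0.85 with si mH2A1.1 (adjusted p = 0.00331, edgeR) and -0.39 with si mH2A1.2 (adjusted p = 0.108, not significant). Gene counts add both isoforms and do not show which of them was reduced. The labelled cell type was checked on 10 myotube markers: their summed level was 12740 to 17370 CPM in si Ctrl, 12200 to 12870 in si mH2A1.1 and 11540 to 14000 in si mH2A1.2, led by Myh3 (embryonic myosin) and Acta1 (skeletal actin). Of 8 markers of other cell types, Epcam, Sox10, Adipoq, Krt8 and Ptprc stayed at or below 0.269 CPM in all 9 samples, Pdgfra reached 9.21 to 19.7 CPM, and the 8 summed to 10.1 to 21.0 CPM.

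The promoter sequences that bear on the E2F link are shown first. RefSeq windows (GRCm38.p6) from 250 bases before to 50 bases after the start were at hand for 33 of the 41 members. The letters TTTCCCGC, TTTCGCGC, TTTGCCGC and TTTGGCGC, which are forms of the E2F site, were searched on both strands. They occurred in 15 of the 33 windows, or 45.5% (95% Wilson interval 29.8 to 62.0), against 626 of 27025 windows of all genes, or 2.32%. In the part before the start alone the shares were 30.3% and 1.91%. The windows of all genes were not matched to the members for expression or base composition. The letters TTTGAA, the cell cycle homology region found in genes of later phases, occurred in 12.1% of the members' windows and 18.1% of all windows. A match is a description of the letters and not a binding site. The stretches below, of 60 bases each and all before the start, were chosen as the members with an E2F match before the start that had the lowest p between the knockdowns in their role, with a pair taken for licensing. They show where the letters lie in genes of successive steps of replication. The E2F letters are in capitals, on either strand, and each stretch reads 5′ to 3′ on the gene's strand.
Cdc6, chr11:98907987-98908046, plus strand: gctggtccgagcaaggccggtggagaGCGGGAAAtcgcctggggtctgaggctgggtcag
Mcm6, chr1:128359780-128359839, minus strand: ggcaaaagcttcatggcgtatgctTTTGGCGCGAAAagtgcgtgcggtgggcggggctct
Gins3, chr8:95633492-95633551, plus strand: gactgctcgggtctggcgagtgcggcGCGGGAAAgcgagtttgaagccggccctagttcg
Rfc3, chr5:151651209-151651268, minus strand: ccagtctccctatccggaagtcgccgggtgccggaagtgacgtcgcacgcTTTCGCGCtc
Pola1, chrX:93632260-93632319, minus strand: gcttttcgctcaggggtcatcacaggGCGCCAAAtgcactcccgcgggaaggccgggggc
E2f7, chr10:110745215-110745274, plus strand: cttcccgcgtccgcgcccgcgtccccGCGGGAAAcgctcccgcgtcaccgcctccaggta
In Mcm6 the capitals are 2 matches that overlap, read on opposite strands. The match began 10 bases before the start in Rfc3 and 198 bases before it in E2f7.

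At day 4 the members ranged in si Ctrl from the 23.7 to the 90.3 percentile of the tested genes. Compared per length, as FPKM (CPM per kilobase of exon), Rrm2, the small subunit of ribonucleotide reductase, was highest at 26.9, followed by Pcna, the sliding clamp, at 15.3, Cdk2 at 13.4, Gins4 at 12.7 and E2f2 at 10.0. The lowest were Cdc6 at 0.614, Mcm10 at 0.568 and Orc1, the largest subunit of the origin recognition complex, at 0.409. Neighbours in the middle of this order, such as Mcm2 at 3.08 and Prim1 at 3.11, differed by less than their spread.

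With si mH2A1.1, 10 of the 41 members were higher than in si Ctrl and none was lower, at an adjusted p of 0.05 or less. The 10 were Mcm3, Mcm4, Mcm7, Gins2, Rfc5, Pola1, Pole, Tyms, E2f1 and E2f2. Of all tested genes, 6.18% were higher, 4.93% were lower and 11.1% were called in either direction. The log2 fold change was above 0 in all 41 members, whereas 49.1% of all tested genes were above 0. The median over the members was 0.72 on the log2 scale, or 1.65-fold, with a range from 0.03 to 1.52, beside a median of -0.01 over all tested genes. At an unadjusted p under 0.05 there were 27 members, and 23 had an adjusted p under 0.10. None passed the stricter rule, which asks for an adjusted p under 0.01 and a change of 0.8 or more on the log2 scale and which 1.31% of all tested genes passed in the higher direction.

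The 3 si mH2A1.1 samples were unequal, and the calls rest on which of them are included. Replicate 1 had the highest level of all 9 samples in 41 of 41 members. Replicate 3 was above the highest si Ctrl sample in 36 members, and replicate 2 in 8. Replicate 2 was the lowest of its group in 40 members. The median over the members of the log2 ratio to the si Ctrl mean was 1.06 in replicate 1, 0.07 in replicate 2 and 0.78 in replicate 3. In the si Ctrl samples it was 0.28, -0.07 and -0.28, so si Ctrl replicate 1 was above si mH2A1.1 replicate 2, a sample of another number. The library names in the labels run in sequence within each of the 3 replicate numbers, so samples were also compared within a number. Against the si Ctrl sample of the same number, 41 members were higher in si mH2A1.1 replicate 1, 28 in replicate 2 and 40 in replicate 3, with median log2 differences of 0.76, 0.17 and 0.95. In all 3 numbers 28 members were higher, against 26.8% of all tested genes. Against the si mH2A1.2 sample of the same number, 36 members were higher in all 3, against 29.0% of all tested genes. Summed over the 41 members, the level was 978, 817 and 787 CPM in si Ctrl and 1633, 924 and 1277 in si mH2A1.1. Groups that did not overlap were found in 8 members (Gins2, Rfc1, Rfc2, Rfc5, Prim2, Tyms, E2f1 and E2f2), all higher, against 17.5% of all tested genes, so the share of members was close to the background. The median coefficient of variation of the members within si mH2A1.1 was 30.9%, against 14.5% over all tested genes. Within si Ctrl it was 21.4% against 13.9%, and within si mH2A1.2 it was 14.1% against 14.7%.

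Leaving out single samples moved the count of 10 widely, in fits that do not use the replicate number. No member passed without si Ctrl replicate 2, without si Ctrl replicate 3 or without si mH2A1.1 replicate 1. Without si mH2A1.1 replicate 3 there was 1 member, E2f2, and without si mH2A1.1 replicate 2 there were 29. Without si mH2A1.2 replicate 2 or without si mH2A1.2 replicate 3, which enter mainly through the shared estimate of the spread, there were 4. The shares of all tested genes called in these fits are not given here. The shifts are therefore not shown to be particular to the members. The median log2 fold change moved less, from 0.47 without si mH2A1.1 replicate 1 to 0.92 without si mH2A1.1 replicate 2. In bulk RNA, more cells in S phase and more RNA per cell cannot be told apart.

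**Figure D1:**
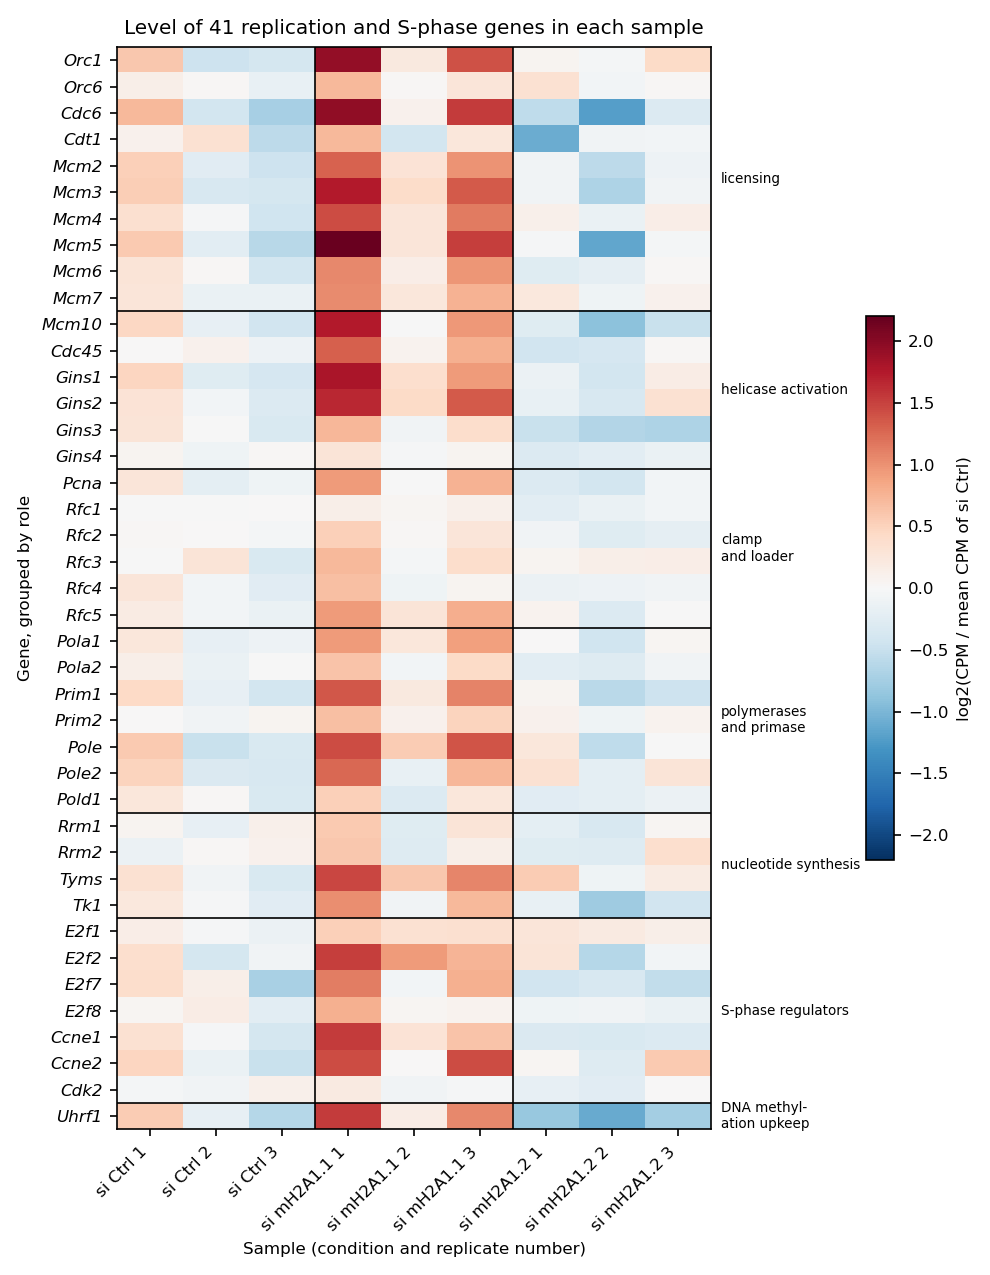
Log2 ratio of the CPM in each of the 9 samples (columns) to the mean CPM of the 3 si Ctrl samples, for the 41 genes (lines of the map) grouped by role, red above and blue below the mean. The first si mH2A1.1 sample is the highest of the 9 in all 41 genes, and the middle si mH2A1.1 sample stands near si Ctrl with a median ratio of 0.07.

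With si mH2A1.2, 0 of the 41 members passed in edgeR, where 2.35% of all tested genes were called in either direction and 1.37% higher. DESeq2 also called 0, and the count was 0 under every other setting that was tried. The log2 fold change was above 0 in 10 members and below 0 in 31, with a median of -0.14 and a range from -0.89 (Uhrf1) to 0.24 (Tyms). Without si Ctrl replicate 1 the median was 0.0248 and 21 members were above 0, so the direction of the median rests on that sample. At an unadjusted p under 0.05 there were 2 members, Gins3 (log2 fold change -0.60, adjusted p = 0.199) and Uhrf1 (-0.89, adjusted p = 0.244). Against the si Ctrl sample of the same number, 5 members were higher in si mH2A1.2 replicate 1, 4 in replicate 2 and 30 in replicate 3. The groups did not overlap in 5 members, Gins3, Gins4, Rfc1, Rfc2 and Uhrf1, all lower. That share of members was close to the 10.8% of all tested genes. In the higher direction, groups that did not overlap were found in 0 members and 11.7% of all tested genes. Summed over the members, the level in si mH2A1.2 was 795, 694 and 850 CPM.

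Compared directly, 25 of the 41 members were higher in si mH2A1.1 than in si mH2A1.2 and none was lower, where 12.0% of all tested genes were higher and 10.5% lower. The log2 difference was above 0 in all 41, with a median of 0.87 (1.82-fold) and a range from 0.16 (Cdk2) to 2.03 (Cdc6). The groups did not overlap in 29 members, against 20.3% of all tested genes. By the stricter rule 1 member passed, Uhrf1, against 3.54% of all tested genes. Without si mH2A1.1 replicate 1 or without si mH2A1.2 replicate 2, 3 members passed. Without si mH2A1.1 replicate 3 there were 7 and without si mH2A1.2 replicate 3 there were 14, while 31 passed without si mH2A1.1 replicate 2. Here too the shares of all tested genes called in these fits are not given. This comparison and the comparisons with si Ctrl use the same samples, so their counts are not independent of each other.

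**Figure D2:**
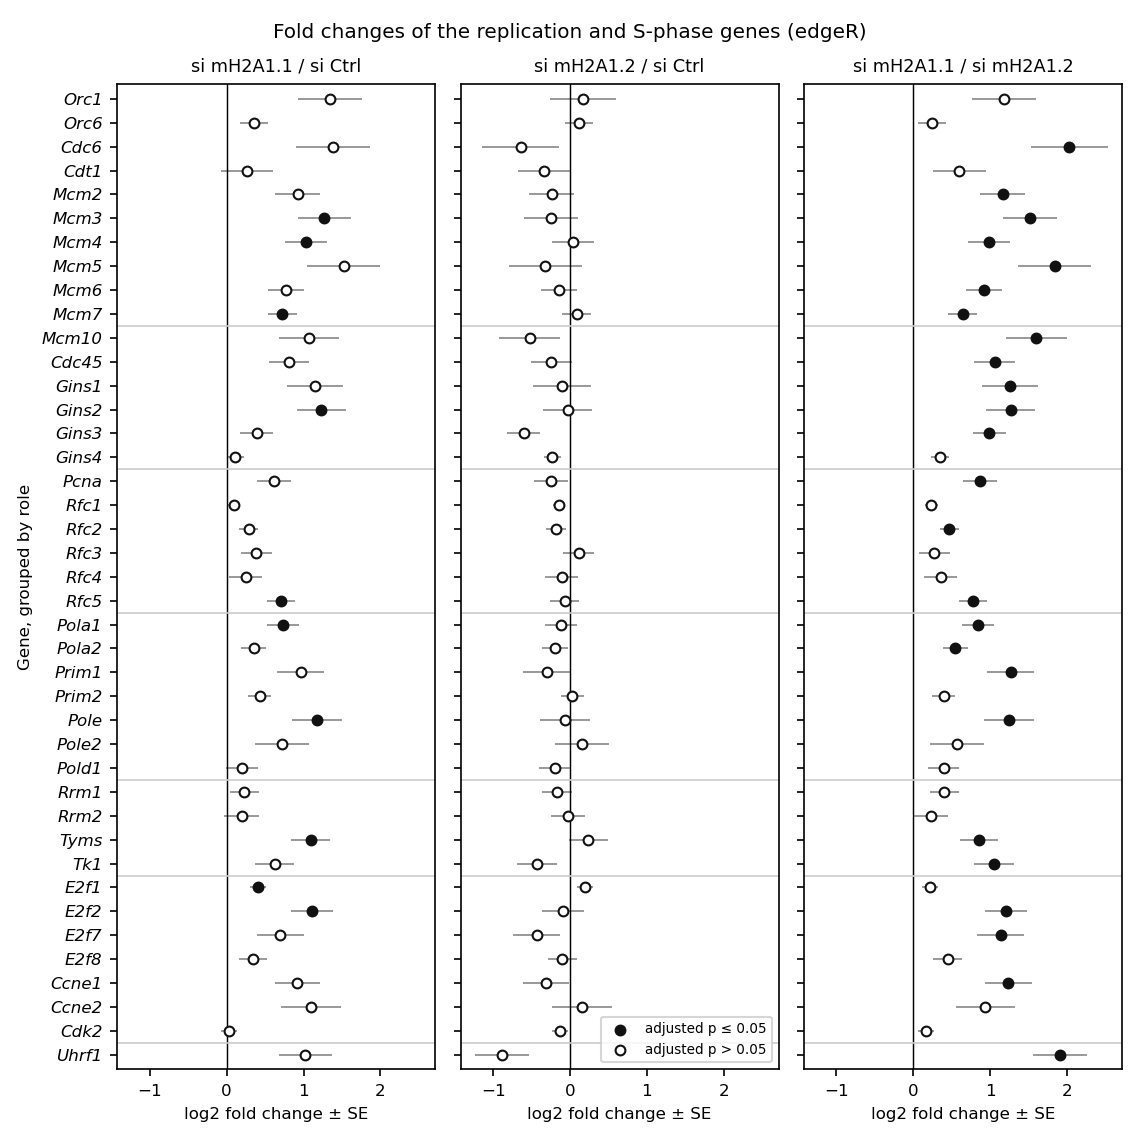
Log2 fold change with its standard error (x axis) of the 41 genes, grouped by role, in 3 comparisons; filled points have an adjusted p of 0.05 or less in edgeR. All 41 points lie above 0 with si mH2A1.1 against si Ctrl and against si mH2A1.2, and 10 and 25 of them are filled, whereas 0 are filled with si mH2A1.2 against si Ctrl.

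Among the 10 licensing genes, 3 were higher with si mH2A1.1 than in si Ctrl and 7 were higher than with si mH2A1.2. The median log2 differences were 0.98 and 1.07. For this role and those below, the shares of all tested genes called higher were 6.18% and 12.0%. No role holds more than 10 genes, so the counts do not rank the roles. Mcm3 (chromosome 1, 20802968 to 20820312, GRCm38), a subunit of the MCM2-7 ring, had 22.4, 12.1 and 11.9 CPM in si Ctrl, 52.1, 20.4 and 39.4 in si mH2A1.1 and 14.7, 9.68 and 14.7 in si mH2A1.2. Its lowest si mH2A1.1 sample was below the highest si Ctrl sample and above every si mH2A1.2 sample. The log2 fold change was 1.27 ± 0.35 (SE, adjusted p = 0.0426) against si Ctrl and 1.52 ± 0.35 (adjusted p = 0.0131) against si mH2A1.2.

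Mcm5, which sits at the gate through which the ring opens, had the largest fold change against si Ctrl without passing the test. Its level was 16.2, 9.25 and 7.09 CPM in si Ctrl, 49.1, 13.0 and 31.1 in si mH2A1.1 and 10.6, 4.93 and 10.5 in si mH2A1.2. The lowest si mH2A1.1 sample, at 13.0, was below the highest si Ctrl sample, at 16.2, and above the other 5 samples. The log2 fold change was 1.52 ± 0.47 (adjusted p = 0.0624) against si Ctrl and 1.84 ± 0.48 (adjusted p = 0.0210) against si mH2A1.2.

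Cdc6 (chromosome 11, 98907801 to 98923940), the ATPase that loads the ring together with Cdt1, had 5.27, 2.42 and 1.93 CPM in si Ctrl, 12.4, 3.41 and 9.38 in si mH2A1.1 and 2.17, 1.38 and 2.60 in si mH2A1.2. All 3 si mH2A1.1 samples were above all si mH2A1.2 samples, but replicate 2 was below the highest si Ctrl sample. Its difference between the knockdowns, 2.03 ± 0.50 (log2, adjusted p = 0.0169), was the largest of the 41, and against si Ctrl it had 1.38 (adjusted p = 0.0872). Mcm4 was higher in both comparisons (1.03, adjusted p = 0.0405, and 0.99, adjusted p = 0.0286), as was Mcm7 (0.73, adjusted p = 0.0396, and 0.64, adjusted p = 0.0382). Mcm2 (1.16, adjusted p = 0.0185) and Mcm6 (0.92, adjusted p = 0.0194) passed between the knockdowns, and had 0.92 (adjusted p = 0.0652) and 0.77 (adjusted p = 0.0575) against si Ctrl.

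The licensing genes that passed in neither comparison were Orc1, Orc6 and Cdt1. Orc1 had 2.14, 1.04 and 1.08 CPM in si Ctrl, 5.43, 1.66 and 3.73 in si mH2A1.1 and 1.49, 1.38 and 1.91 in si mH2A1.2, with a log2 fold change of 1.34 against si Ctrl (adjusted p = 0.0642). Its values in si mH2A1.1 replicate 2 lay within those of both other groups. Cdt1, the licensing factor that geminin inhibits, had 0.26 (adjusted p = 0.649), and Orc6, the smallest subunit of the origin recognition complex, 0.36 (adjusted p = 0.217).

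Of the 6 genes of helicase activation, Gins2 was higher with si mH2A1.1 than in si Ctrl, and all but Gins4 were higher than with si mH2A1.2. The median log2 differences were 0.94 and 1.16. Gins2, a GINS subunit, had 3.35, 2.58 and 2.19 CPM in si Ctrl, 8.60, 3.61 and 6.89 in si mH2A1.1 and 2.42, 2.11 and 3.41 in si mH2A1.2. The si mH2A1.1 samples were above all others, replicate 2 by a small margin. The log2 fold change was 1.23 ± 0.32 (adjusted p = 0.0355) against si Ctrl and 1.26 ± 0.32 (adjusted p = 0.0188) against si mH2A1.2. In GENCODE M21, 67.3% of its exon bases are also covered by Gse1 on the other strand, and without a stated strand setting reads of Gins2 and Gse1 cannot be told apart there. Of the 41 members, 15 share exon bases with another gene. The shared part is over 10% in 8, among them Mcm7 (12.6%), Rfc5 (10.7%) and Rfc2 (15.1%).

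Gins3 had 13.5, 10.9 and 8.77 CPM in si Ctrl, 18.4, 10.5 and 14.5 in si mH2A1.1 and 7.90, 7.10 and 6.88 in si mH2A1.2. It differed between the knockdowns by 0.99 ± 0.22 (log2, adjusted p = 0.0102), and all 3 si mH2A1.2 samples were below all 6 others. Mcm10, a scaffold that helps the helicase to start, differed between the knockdowns by 1.60 ± 0.40 (adjusted p = 0.0184), Gins1 by 1.25 ± 0.37 (adjusted p = 0.0342) and Cdc45 by 1.06 ± 0.27 (adjusted p = 0.0185). Against si Ctrl these 3 had 1.07 (adjusted p = 0.1002), 1.15 (adjusted p = 0.0672) and 0.81 (adjusted p = 0.0719). Gins4 was nearly level, at 17.9, 16.1 and 17.4 CPM in si Ctrl, 20.8, 16.9 and 17.97 in si mH2A1.1 and 13.9, 14.5 and 15.5 in si mH2A1.2, with 0.11 ± 0.11 against si Ctrl (adjusted p = 0.546).

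The clamp and its loader had smaller differences, with medians of 0.34 against si Ctrl and 0.41 against si mH2A1.2. Of the 6 genes, 1 was higher with si mH2A1.1 than in si Ctrl and 3 were higher than with si mH2A1.2. The shares of all tested genes were 6.18% and 12.0%. Rfc5, a loader subunit, had 9.98, 8.42 and 7.92 CPM in si Ctrl, 16.9, 10.7 and 15.3 in si mH2A1.1 and 9.25, 7.10 and 8.73 in si mH2A1.2. The si mH2A1.1 samples did not overlap with the others, and the log2 differences were 0.71 ± 0.19 (adjusted p = 0.0385) and 0.78 ± 0.19 (adjusted p = 0.0159). Pcna, the ring that holds polymerases on DNA, had 44.0, 31.7 and 34.3 CPM in si Ctrl, 70.5, 36.6 and 62.0 in si mH2A1.1 and 29.8, 27.9 and 35.02 in si mH2A1.2. It was higher with si mH2A1.1 than with si mH2A1.2 (0.87 ± 0.22, adjusted p = 0.0194), and had 0.62 ± 0.22 (adjusted p = 0.0911) against si Ctrl. Rfc2 was higher between the knockdowns (0.47 ± 0.13, adjusted p = 0.0247). Rfc1, the largest loader subunit, had 53.9 to 54.6 CPM in si Ctrl, 55.8 to 59.3 in si mH2A1.1 and 46.1 to 52.1 in si mH2A1.2, and passed in no comparison. Rfc3 (0.39, adjusted p = 0.228) and Rfc4 (0.25, adjusted p = 0.469) did not pass against si Ctrl.

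Of the 7 polymerase and primase genes, 2 were higher with si mH2A1.1 than in si Ctrl and 4 were higher than with si mH2A1.2, with medians of 0.72 and 0.56. Pole, the catalytic subunit of the leading-strand polymerase epsilon, had 15.2, 7.25 and 8.04 CPM in si Ctrl, 27.4, 14.9 and 26.5 in si mH2A1.1 and 12.1, 6.92 and 10.0 in si mH2A1.2. Its replicate 2 of si mH2A1.1 lay just below si Ctrl replicate 1. The differences were 1.18 ± 0.33 (adjusted p = 0.0446) and 1.25 ± 0.33 (adjusted p = 0.0219). Pola1, the catalytic subunit of polymerase alpha, which starts each fragment together with primase, had 19.2, 14.3 and 14.8 CPM in si Ctrl, 31.0, 19.1 and 30.0 in si mH2A1.1 and 16.2, 11.9 and 16.6 in si mH2A1.2. The differences were 0.73 ± 0.21 (adjusted p = 0.0485) and 0.84 ± 0.21 (adjusted p = 0.0171). Prim1, the primase subunit that makes the RNA primer, was higher than with si mH2A1.2 (1.27 ± 0.31, adjusted p = 0.0167), as was Pola2 (0.55 ± 0.16, adjusted p = 0.0375). Against si Ctrl they had 0.96 (adjusted p = 0.0678) and 0.35 (adjusted p = 0.180). Prim2, Pole2 and Pold1, the catalytic subunit of polymerase delta, did not pass in any comparison, and their log2 differences against si Ctrl were 0.43, 0.72 and 0.20.

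Among the 4 genes of nucleotide synthesis, Tyms was higher with si mH2A1.1 than in si Ctrl, and Tyms and Tk1 were higher than with si mH2A1.2. Tyms (chromosome 5, 30058202 to 30073617), thymidylate synthase, had 13.3, 10.1 and 8.40 CPM in si Ctrl, 29.5, 16.0 and 22.3 in si mH2A1.1 and 15.5, 9.94 and 12.0 in si mH2A1.2. The si mH2A1.1 samples were above all 6 others, and the differences were 1.09 ± 0.25 (adjusted p = 0.0247) and 0.85 ± 0.25 (adjusted p = 0.0338). Tk1, thymidine kinase of the salvage pathway, differed by 1.05 ± 0.26 between the knockdowns (adjusted p = 0.0174) and had 0.62 (adjusted p = 0.137) against si Ctrl. Rrm1 and Rrm2, the subunits of ribonucleotide reductase, passed in no comparison. Rrm2 had 68.0, 76.2 and 79.0 CPM in si Ctrl, 113, 61.1 and 81.7 in si mH2A1.1 and 62.0, 61.0 and 95.8 in si mH2A1.2. The groups overlapped over most of this range, and its log2 fold change with si mH2A1.1 was 0.20 ± 0.22 (adjusted p = 0.599) against si Ctrl. Of the 41 members, named pseudogenes that could share reads are annotated for Tyms and Pcna.

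Of the 7 S-phase regulators, E2f1 and E2f2 were higher with si mH2A1.1 than in si Ctrl, and E2f2, E2f7 and Ccne1 were higher than with si mH2A1.2. E2f2 (chromosome 4, 136172394 to 136196057), an activating E2F, had 63.1, 37.6 and 46.2 CPM in si Ctrl, 141, 94.2 and 82.0 in si mH2A1.1 and 59.3, 31.6 and 47.1 in si mH2A1.2. It differed from most members in that si mH2A1.1 replicate 2 was not the lowest of its group and all 3 samples were above all 6 others. The differences were 1.11 ± 0.27 (adjusted p = 0.0293) and 1.202 ± 0.27 (adjusted p = 0.0120). E2f1, the other activating E2F of the set, had 22.4, 19.9 and 18.7 CPM in si Ctrl, 29.1, 25.7 and 26.0 in si mH2A1.1 and 24.3, 23.4 and 22.2 in si mH2A1.2. Its difference was small but even between samples, 0.41 ± 0.11 against si Ctrl (adjusted p = 0.0357) and 0.21 ± 0.11 against si mH2A1.2 (adjusted p = 0.179).

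E2f7, an atypical E2F that represses, differed between the knockdowns by 1.13 ± 0.31 (adjusted p = 0.0266), and the related E2f8 by 0.45 (adjusted p = 0.117). Ccne1, cyclin E1, the partner of Cdk2 at S-phase entry, had 6.91, 5.41 and 4.20 CPM in si Ctrl, 16.1, 6.74 and 8.46 in si mH2A1.1 and 4.43, 4.36 and 4.48 in si mH2A1.2. It was higher with si mH2A1.1 than with si mH2A1.2 (1.24 ± 0.30, adjusted p = 0.0168) and had 0.92 (adjusted p = 0.0718) against si Ctrl. Ccne2, cyclin E2, had 1.09 (adjusted p = 0.0917) against si Ctrl. Cdk2 itself was close to level, at 81.2, 79.2 and 90.3 CPM in si Ctrl, 95.8, 78.8 and 81.7 in si mH2A1.1 and 73.9, 70.5 and 84.3 in si mH2A1.2, with 0.03 ± 0.11 (adjusted p = 0.874) against si Ctrl.

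Uhrf1 (ENSMUSG00000001228, chromosome 17, 56303321 to 56323486) recognises hemimethylated DNA behind the fork and recruits the maintenance methyltransferase Dnmt1. It had 39.3, 23.4 and 17.3 CPM in si Ctrl, 77.3, 29.7 and 55.3 in si mH2A1.1 and 14.98, 12.4 and 16.0 in si mH2A1.2. All 3 si mH2A1.2 samples were below all si Ctrl samples, and all 3 si mH2A1.1 samples were above all si mH2A1.2 samples. The difference between the knockdowns was 1.91 ± 0.36 (log2, adjusted p = 0.00521), or 3.75-fold, and it passed in 18 of 18 alternative settings, with an adjusted p from 4.17e-07 to 0.0288. Against si Ctrl the differences did not pass, at 1.02 ± 0.34 (adjusted p = 0.0803) with si mH2A1.1 and -0.89 ± 0.35 (adjusted p = 0.244) with si mH2A1.2.

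**Figure D3:**
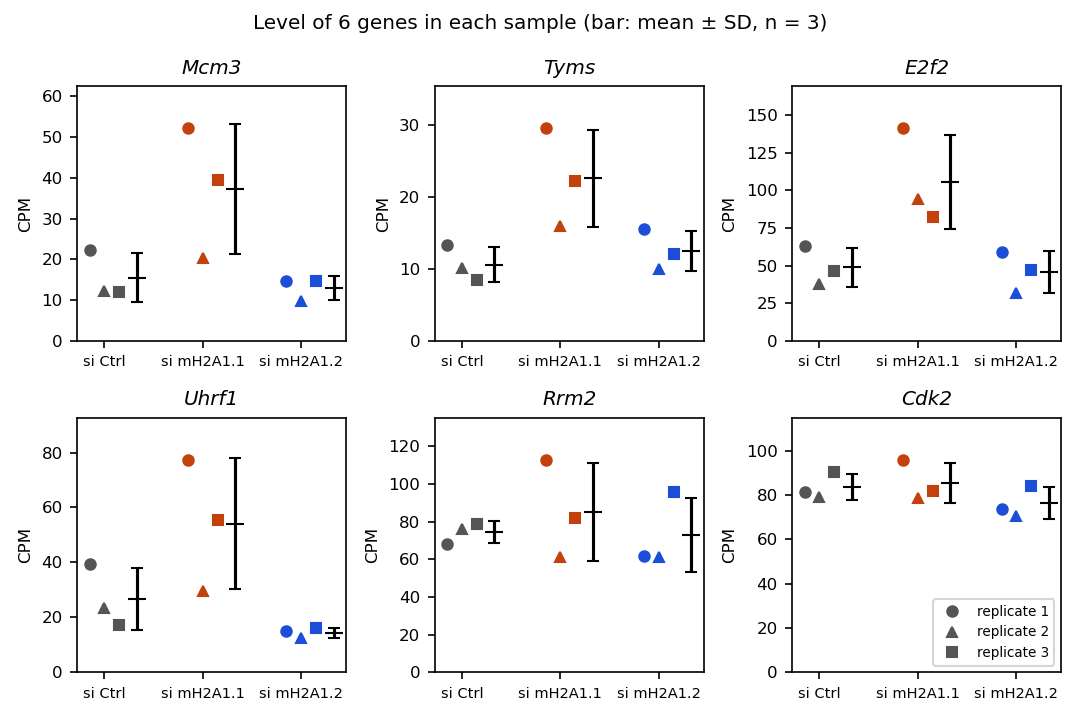
CPM (y axis, from 0) of 6 genes in each of the 9 samples; the marker shape gives the replicate number, and the bar beside each group is the mean ± SD of 3 samples. In Mcm3, Tyms, E2f2 and Uhrf1 the first si mH2A1.1 sample is the highest of the 9, while Rrm2 and Cdk2 overlap between all 3 groups.

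Members with low control levels tended to have the larger fold changes with si mH2A1.1. Over the 41 members, Spearman's rho of the FPKM in si Ctrl with the log2 fold change of si mH2A1.1 against si Ctrl was -0.57. For si mH2A1.1 against si mH2A1.2, which does not use the si Ctrl samples in the fold change, it was -0.49, and for si mH2A1.2 against si Ctrl -0.04. The points share the same libraries, and the control level also enters the fold changes against si Ctrl, so the values are a description. For si mH2A1.1 against si Ctrl, the median log2 fold change was 0.73 in the 15 members with the E2F letters, 4 of them called higher. In the 18 without the letters it was 0.62, with 3 called higher. Of all tested genes 6.18% were called higher. Between the knockdowns the medians were 0.92 with the letters and 0.81 without. There 9 and 11 members were called higher, against 12.0% of all tested genes.

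**Figure D4:**
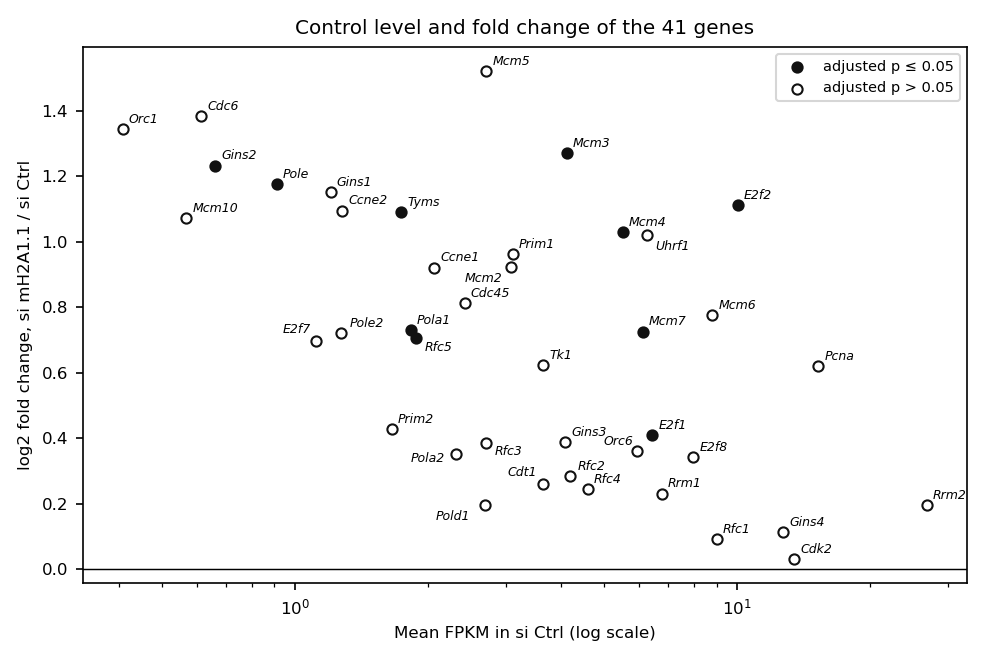
Mean FPKM in si Ctrl (x axis, log scale) and log2 fold change of si mH2A1.1 against si Ctrl (y axis) for the 41 genes; filled points have an adjusted p of 0.05 or less in edgeR. Orc1, Cdc6, Gins2 and Pole lie at the upper left, with low levels and large fold changes, and Rfc1, Gins4, Cdk2 and Rrm2 at the lower right.

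Other genes of the same pathways were taken from lists. Of 45 other replication genes tested, 3 were higher with si mH2A1.1 than in si Ctrl, close to the 6.18% of all tested genes. The 3 were Ticrr (1.06, adjusted p = 0.0307), Dna2 (1.14, adjusted p = 0.0384) and Dscc1 (1.05, adjusted p = 0.0431). The median over the 45 was 0.43. Pold4, the small subunit of polymerase delta, moved the other way, at 34.2, 63.4 and 54.6 CPM in si Ctrl, 21.2, 27.6 and 23.5 in si mH2A1.1 and 39.6, 59.7 and 57.3 in si mH2A1.2. Its log2 difference was -1.07 (adjusted p = 0.0180) against si Ctrl and -1.11 (adjusted p = 0.00757) against si mH2A1.2. Between the knockdowns 20 of the 45 were higher and 3 lower (Orc3, Mtbp and Pold4), against 12.0% and 10.5% of all tested genes. Of the 3 lower, Orc3 and Mtbp are named after their values were seen. Among those higher were Asf1b and Chaf1b, chaperones that place histones behind the fork (1.29, adjusted p = 0.00432, and 1.69, adjusted p = 0.0126), and Dck, deoxycytidine kinase (0.91, adjusted p = 0.00953). Against si Ctrl, si mH2A1.2 gave 0 calls in edgeR and 1 in DESeq2, and 3 genes had an unadjusted p under 0.05.

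Of 12 genes of later phases of the cell cycle, 12 were higher with si mH2A1.1 than with si mH2A1.2, against 12.0% of all tested genes. Their median log2 difference was 1.35, beside 0.87 in the 41 members. Against si Ctrl, Plk1, a mitotic kinase (1.09, adjusted p = 0.0417), and Birc5, survivin (0.96, adjusted p = 0.0445), were higher with si mH2A1.1. Those 2 of the 12 stood beside 6.18% of all tested genes called higher. The 12 had a median of 0.83 in that comparison. With si mH2A1.2 their median was -0.52 and edgeR called 0 of them, 1 having an unadjusted p under 0.05. Birc5 had 21.15, 16.9 and 14.3 CPM in si Ctrl, 48.7, 22.7 and 30.7 in si mH2A1.1 and 15.1, 10.7 and 10.4 in si mH2A1.2. As in most members, si mH2A1.1 replicate 1 was the highest and replicate 2 the lowest of its group, here just above the highest si Ctrl sample.

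Upstream of S phase, Ccnd1, cyclin D1 of the G1 phase, had 74.2, 93.1 and 82.8 CPM in si Ctrl, 152, 132 and 167 in si mH2A1.1 and 84.5, 99.9 and 74.7 in si mH2A1.2. Unlike most members it was high in all 3 si mH2A1.1 samples, with 0.85 against si Ctrl (adjusted p = 0.00613) and 0.80 against si mH2A1.2 (adjusted p = 0.00328). E2f5, a repressing E2F, was lower with si mH2A1.1 in both comparisons (-0.44, adjusted p = 0.0477, and -0.40, adjusted p = 0.0435). E2f6, of the same list of other E2F and G1 cyclin genes, was higher between the knockdowns (0.61, adjusted p = 0.0128). Against si Ctrl it had 0.34 (adjusted p = 0.133). With si mH2A1.1 against si Ctrl, 1 of the 11 genes of that list was higher and 1 lower. The shares of all tested genes were 6.18% and 4.93%. Between the knockdowns 2 were higher and 1 lower, against 12.0% and 10.5%. Of 8 tested pocket protein and CDK inhibitor genes, edgeR called 0 in either comparison with si Ctrl, and 3 and 1 had an unadjusted p under 0.05. Between the knockdowns Rbl1, the pocket protein p107, was higher (0.78, adjusted p = 0.0237). Cdkn1c, the CDK inhibitor p57, had 7.25, 7.81 and 4.00 CPM in si Ctrl, 39.0, 19.1 and 8.34 in si mH2A1.1 and 4.68, 2.95 and 1.53 in si mH2A1.2, and was higher between the knockdowns by 2.86 (adjusted p = 0.00633).

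**Figure D5:**
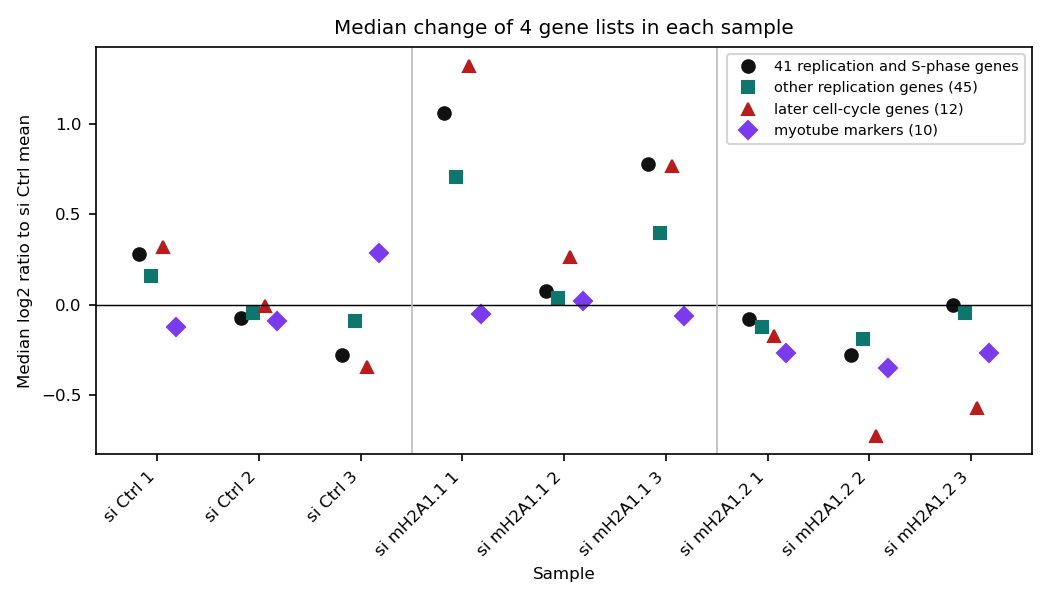
Median log2 ratio to the si Ctrl mean (y axis) in each of the 9 samples (x axis) for 4 gene lists, the 41 replication and S-phase genes, 45 other replication genes, 12 later cell-cycle genes and 10 myotube markers. The 3 cell-cycle lists are highest in the first si mH2A1.1 sample (1.06, 0.70 and 1.32), intermediate in the last (0.78, 0.40 and 0.77) and lowest of that group in the middle sample (0.07, 0.03 and 0.26), while the myotube markers range from -0.35 to 0.29.

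Differentiation markers did not move in a single direction. Of the 10 myotube markers, Myog (myogenin; -0.66, adjusted p = 0.0204) and Mymx (myomixer, a fusion peptide; -0.82, adjusted p = 0.0221) were lower with si mH2A1.1 than in si Ctrl. The other 8 did not pass, and the median was -0.05. Of all tested genes 4.93% were called lower in that comparison. Des (desmin, -0.62, adjusted p = 0.0466) and Tnnt3 (fast troponin T, -0.96, adjusted p = 0.0280) were lower with si mH2A1.2 than in si Ctrl, with a median of -0.22 over the 10 markers. Of all tested genes 2.35% were called in either direction in that comparison. Between the knockdowns, 3 markers were higher with si mH2A1.1 and 2 lower, against 12.0% and 10.5% of all tested genes. Higher were Ckm (1.14, adjusted p = 0.00241), Des (1.07, adjusted p = 0.000844) and Tnnt3 (0.73, adjusted p = 0.0169). Lower were Myog (-0.46, adjusted p = 0.0435) and Mymx (-0.74, adjusted p = 0.0172). Of 7 tested markers of undifferentiated myoblasts and reserve cells, 0 passed with si mH2A1.1 against si Ctrl (2 at an unadjusted p under 0.05). Myf5 was lower with si mH2A1.2 than in si Ctrl (-0.84, adjusted p = 0.0422). Between the knockdowns, Pax7 (1.32, adjusted p = 0.00811) and Myf5 (1.17, adjusted p = 0.00203) were higher with si mH2A1.1. Lower were Cd34 (-1.41, adjusted p = 0.0154), Id1 (-0.67, adjusted p = 0.0463) and Id3 (-1.06, adjusted p = 0.0273), so the list was split. The list of 8, led by Cd34, summed to 169 to 226 CPM in si Ctrl, 147 to 207 in si mH2A1.1 and 204 to 288 in si mH2A1.2, with Pax3 at or below 0.295 CPM. The part of these cells in the levels of the replication genes was not tested.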

How the data were processed

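Poly(A) RNA of 9 samples was quantified by the authors with Salmon on GRCm38 (mm10 per the labels), and the annotation release is not given in the sources used here. The deposited table holds expected counts, as whole numbers without normalization. A further deposited table, used only as a check, is a signal scaled by the authors, in which each sample's counts stand divided by a constant size factor. Names, positions and exon lengths came from GENCODE M21, which holds 52762 of 52780 genes.

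Tests used edgeR 4.0.16 in R 4.3.3 (quasi-likelihood, legacy form, TMM, filterByExpr, 19545 genes, all 9 samples in 1 model, 3 contrasts, Benjamini-Hochberg adjustment, called at an adjusted p of 0.05 or less). The Wilson interval of the promoter share covers counting error only. The standard errors of the fold changes come from the quasi-likelihood test and include the spread between samples. Alternatives were DESeq2 1.42.0, edgeR's newer form, DESeq2 size factors, other filters, the replicate number as a block, own groups only, a stricter rule and leaving out each sample. The tests were checked on simulated data. limma-voom (limma 3.58.1) was added after seeing the data. Members and lists were chosen with earlier results of these data known. All members may be named. A standard error is given for members called in any contrast, except Mcm2, Mcm4, Mcm6 and Mcm7, and for the 3 highest others. Most remaining members have a fold change and adjusted p only. Prim2, Pole2 and Pold1 have a fold change only, and Rfc1 and Rrm1 have neither. Of other lists statistics are given for called genes, at most 6 per contrast, and the highest markers. One symbol of another list matched several gene identifiers and was left out.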

Additional observations from a re-analysis of the deposited data

How the results depend on the processing

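Counts of members called with si mH2A1.1 against si Ctrl were 22 with DESeq2, 20 without the low-count filter, 6 with limma-voom, 3 with own groups only and 0 by the stricter rule, and ranged from 0 to 29 when single samples were left out (10 as reported). Between the knockdowns they were 1 by the stricter rule and 3 to 31 with single samples left out, against 25. With si mH2A1.2 against si Ctrl the count was 0 throughout, and the median of the members ranged from -0.23 to 0.0248, the latter without si Ctrl replicate 1. For the other replication genes the counts with si mH2A1.1 against si Ctrl were 12 with DESeq2, 10 without the filter, 2 with limma-voom, 0 by the stricter rule and 0 to 22 with samples left out (4 as reported). With si mH2A1.2 against si Ctrl they were 1 with DESeq2, without the filter and with own groups only, and 0 to 1 with samples left out (0 as reported). Between the knockdowns they were 4 by the stricter rule and 6 to 31 with samples left out (23 as reported). No called member changed sign under any alternative. The shares of all tested genes called under these settings are not given here. The shifts in the counts are therefore not shown to be particular to the members or the other replication genes. The cause of these shifts was not tested.

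The library names in the labels run in sequence within each replicate number, and within-number differences were added after seeing the data. With the replicate block, 22 members and 15 other replication genes passed with si mH2A1.1 against si Ctrl and 1 other replication gene with si mH2A1.2. The share of all tested genes called under the block is not given here. Deviations of same-numbered samples correlated at 0.08 to 0.33 (mean 0.155), against a mean of -0.077 for samples of other numbers. All 9 samples correlated best with their own number. The labels do not say what a number stands for, and 5 of 9 same-numbered pairs were over 0.1. The main fit therefore left the samples unpaired, which does not exclude a shared batch within a number.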
